A study of Mus musculus with 2 samples.

Results

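Cluster 14 is a small group of lung cells that carries the genes of matrix fibroblasts and holds fewer transcripts per cell than any other group in the authors' annotation. Its members were taken as every cell to which the authors' deposited cell table gives cluster number 14, which makes 323 of 22963 annotated cells: 67 of 9454 in the 5E1 library and 256 of 13509 in the IgG library. The cells came from mouse pups of the genotype Gli1CreERT2/+,R26RtdT/+, in which a tamoxifen-dependent Cre recombinase driven by Gli1, a gene induced by Hedgehog signalling, switches on the tdTomato reporter. All pups received tamoxifen under the skin on postnatal day 1. On day 3 they received either 5E1, an antibody that blocks Hedgehog ligands, or a control IgG, and the whole lungs were taken on day 6. Lungs of 3 pups were pooled per condition and each pool gave 1 library of droplet-based 3' single-cell RNA sequencing, so the 5E1 and IgG groups are 1 library each and no difference between them has a replicate check. Every interval given is a 95% interval for counting error within a library, no test between libraries was possible, and none was made between clusters, which had been formed from the RNA of the same cells.

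Matrix fibroblasts are mesenchymal cells of the alveolar wall that make collagens and elastic fibre proteins and support the epithelium with growth factors. They differ from alveolar myofibroblasts, which carry contractile proteins and build the new septa, and some of them store lipid. Hedgehog ligands released by lung epithelium act on the mesenchyme, where Ptch1, Gli1 and Hhip are induced as feedback and read-out genes of the pathway. Depth, the share of mitochondrial transcripts and the share of nuclear RNA are common descriptors of the quality of a cell in droplet data, and they are given for cluster 14 beside its genes.

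Cluster 14 carried its 3 given markers in both libraries, with Tcf21 near its level in the largest matrix fibroblast cluster and Macf1 above it. Macf1, which encodes a very large protein that links actin to microtubules (chromosome 4, positions 123349633 to 123684360 of mouse build GRCm38), had 2399 CPM (UMIs of the gene per 1000000 UMIs of the cluster) in the 5E1 library and 2498 CPM in the IgG library. Tcf21, a transcription factor of lung fibroblasts and lipofibroblasts (chromosome 10, 22817281 to 22820174), had 962 CPM with 5E1 and 1022 CPM with IgG. Limch1, an activator of non-muscle myosin (chromosome 5, 66745827 to 67057158), had 1850 CPM with 5E1 and 1962 CPM with IgG. After each cell had been thinned at random to 1000 UMIs, so that depth was equal, Tcf21 was found in 65.1% (52.0 to 76.7%) of 5E1 cells and 57.6% (51.1 to 63.8%) of IgG cells of cluster 14. It was found in 67.8% and 57.9% of the cells of cluster 19, the largest matrix fibroblast cluster, with 5E1 and IgG. In cluster 4, which had the highest level of the B cell gene Cd79a in both libraries and whose cells should lack Tcf21, the shares were 0.235% and 1.6%. Without thinning, Tcf21 was found in 77.6% and 81.6% of the cells of cluster 14, and in 3.05% and 5.53% of those of cluster 4, whose median depths were 3325 and 2499 UMIs. Limch1 was found in 82.5% (70.9 to 90.9%) and 85.3% (80.2 to 89.5%) of thinned cells of cluster 14, against 78.7% (75 to 82.0%) and 71.6% (69.5 to 73.7%) in cluster 19 and 1.41% and 2.67% in cluster 4, and in 89.6% and 93.4% of unthinned cells of cluster 14. Macf1 was found in 85.7% (74.6 to 93.3%) and 90.2% (85.8 to 93.6%) of thinned cells of cluster 14, against 73.0% (69.0 to 76.7%) and 72.5% (70.4 to 74.6%) in cluster 19 and 8.45% and 8% in cluster 4, and in 94.0% and 96.9% of unthinned cells of cluster 14. At equal depth the intervals of clusters 14 and 19 were apart for Macf1 and Limch1 with IgG and overlapped with 5E1, and the shares of Tcf21 lay close together in both libraries. The summed level of the 25 matrix fibroblast markers was 24109 CPM with 5E1 and 25056 CPM with IgG in cluster 14. Without 13 cells nearest to clusters outside the matrix fibroblasts, described further on, it was 28479 CPM with 5E1 and 25382 CPM with IgG. Cluster 19 had 26856 CPM with 5E1 and 24699 CPM with IgG, and cluster 20, another matrix fibroblast cluster, had the highest sums of all, 33021 and 28490 CPM. The clusters were made from the RNA of these same cells, so the levels describe the cluster. Of the 25 markers, 24 were detected with 5E1, where Enpp2 was at 0, and all 25 with IgG.

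Cells of cluster 14 were shallow in both libraries. The median cell had 1911 UMIs in the 5E1 library (interquartile range 1464 to 2474, n = 67) and 2211 UMIs in the IgG library (1642 to 2901, n = 256). The median of cluster 19 was 4236 UMIs with 5E1 and 4623 UMIs with IgG, and that of cluster 20 was 5009 and 5386 UMIs. No other of the 23 clusters had a lower median in either library, the nearest being cluster 1 with 1965 UMIs in the 5E1 library and cluster 5 with 2313 UMIs in the IgG library. The number of genes per cell was correspondingly low, with medians of 1026 genes with 5E1 and 1186 genes with IgG. When cells were thinned to 1000 UMIs, cluster 14 had 637 genes per cell with 5E1 and 651 with IgG, against 620 and 635 genes in cluster 19. At equal depth a median cell of cluster 14 thus had slightly more genes than a median cell of cluster 19. Thinning left out 4 of the 67 cells and 11 of the 256 cells, which had fewer than 1000 UMIs.

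By their medians, the mitochondrial and Malat1 shares of these UMIs set cluster 14 apart from all other clusters. Transcripts encoded by the mitochondrial genome made up 5.50% of UMIs in the median 5E1 cell and 5.35% in the median IgG cell, the highest medians of the 23 clusters, where no other exceeded 3.56% with 5E1 or 3.39% with IgG. Cluster 19 had medians of 2.43% with 5E1 and 2.64% with IgG. Malat1, a long non-coding RNA that stays in the nucleus, made up 5.54% and 4.31% of UMIs in the median cell of cluster 14, again the highest of all clusters, against 2.67% and 2.18% in cluster 19. Ribosomal protein transcripts took a smaller share, with medians of 16.5% with 5E1 and 16.9% with IgG in cluster 14, against 24.8% and 23.4% in cluster 19. Counted from the lowest of the 23 clusters, these ribosomal protein medians of cluster 14 had rank 3 with 5E1 and rank 5 with IgG. Single cells of clusters 14 and 19 overlapped in all 3 shares. More than 5% mitochondrial UMIs were found in 56.7% of 5E1 cells and 59.0% of IgG cells of cluster 14, against 2.54% and 2.86% in cluster 19. Of the 302 annotated cells above 8%, 58 (19.2%) were in cluster 14 and 1 was in cluster 19.

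**Figure D1:**
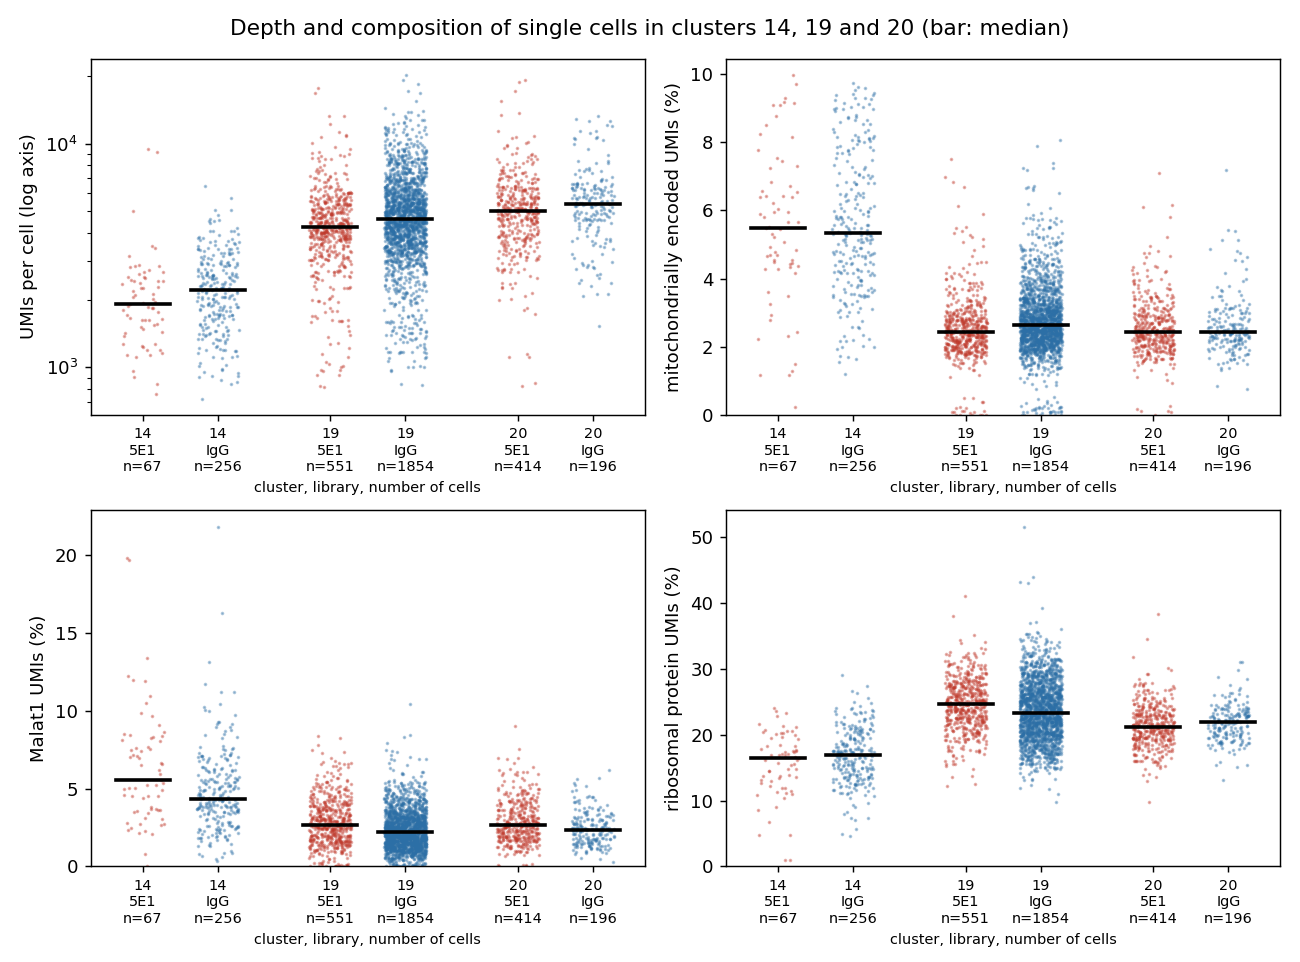
UMIs per cell on a log axis and the percentage of UMIs that are mitochondrially encoded, from Malat1 or from ribosomal protein genes, for each cell of clusters 14, 19 and 20 by library (points are cells, bars are medians). Cluster 14 medians of 1911 and 2211 UMIs lie under those of clusters 19 and 20, its mitochondrial and Malat1 medians lie above them and its ribosomal protein medians below.

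Cells of cluster 19 picked for the same depth differed from cluster 14 in all 3 shares. For each cluster 14 cell, the unused cluster 19 cell of the same library with the nearest UMI total was taken. These cells had median totals of 1941 UMIs with 5E1 and 2248 UMIs with IgG. Their mitochondrial medians were 2.48% and 2.80%, and their ribosomal protein medians 24.3% and 24.5%, close to those of cluster 19 as a whole. Their Malat1 medians were 1.75% and 1.84%, further from cluster 14 than the 2.67% and 2.18% of cluster 19 as a whole. The largest gap in UMIs within a pair was 177 with 5E1 and 1707 with IgG. Within cluster 14, cells with fewer UMIs tended to have a higher mitochondrial share (Spearman's rho across cells -0.50 with 5E1 and -0.30 with IgG), and the mitochondrial share ran against the ribosomal protein share (rho -0.39 and -0.53). The mitochondrial and the Malat1 share were nearly unrelated from cell to cell (rho 0.16 and 0.06). These values describe cells of 1 pool each, and the shares have a common denominator.

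**Figure D2:**
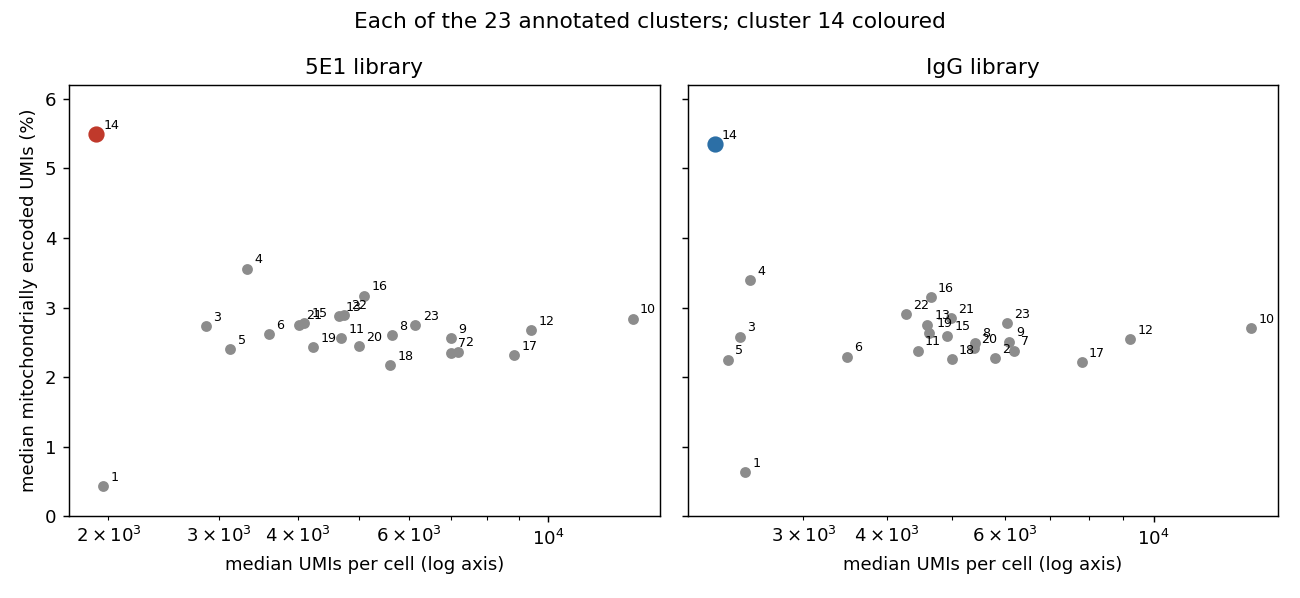
Median percentage of mitochondrially encoded UMIs against median UMIs per cell (log axis) for each of the 23 annotated clusters, in the 5E1 library (left) and the IgG library (right), with cluster numbers beside the points. Cluster 14 is the point with the lowest depth and the highest mitochondrial share in both panels, at 5.50% and 5.35%.

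The distribution of the mitochondrial share in cluster 14 reached the upper edge of the annotated data, as did that of several other clusters. The highest value of a member was 9.96% with 5E1 and 9.73% with IgG, and no annotated cell of any cluster was above 10%. Cluster 10 had maxima of 9.97% and 9.91% and cluster 11 of 9.98% and 9.95%. Those of cluster 19 were 7.50% and 8.06% and those of cluster 20 were 7.10% and 7.18%. The deposited matrices also hold barcodes that are in no cluster, 1065 with 5E1 and 1512 with IgG. Among them, 269 and 386 had at least 500 genes and more than 10% mitochondrial UMIs. By marker genes, 25 of the 269 and 88 of the 386 were nearest to the matrix fibroblast clusters 14, 19 or 20, with 8 and 49 nearest to cluster 14 itself. The barcodes nearest to those 3 clusters had median mitochondrial shares of 13.8% with 5E1 and 13.2% with IgG and median Malat1 shares of 5.24% and 3.93%. Barcodes nearest to these 3 clusters by marker genes were thus present on both sides of 10%. Those above 10% had median totals of 942 UMIs with 5E1 and 1190 UMIs with IgG, and their medians cover all 3 clusters together.

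By identity, nearly all members lay with the other 2 matrix fibroblast clusters. Each cell was compared with the marker-gene profile of each of the other 22 clusters over 153 marker genes, and the likeliest was taken. Of the 67 5E1 cells, 15 were nearest to cluster 19 and 45 to cluster 20, and of the 256 IgG cells, 218 were nearest to cluster 19 and 32 to cluster 20, so 310 of 323 cells (96.0%) were nearest to one of the 2. Of cluster 19 cells thinned to the same totals, 30 of 67 with 5E1 were nearest to cluster 19 and 34 to cluster 20, and 217 of 256 with IgG to cluster 19 and 30 to cluster 20. Together these were 311 of 323 (96.3%), and 6785 genes in place of the markers gave 94.7% of cluster 14. With the 6785 genes the split between the 2 clusters differed from that of thinned cluster 19 cells. Nearest to cluster 20 were 57 of 67 5E1 members and 61 of 256 IgG members, against 34 and 35 thinned cells. Nearest to cluster 19 were 3 and 185 members, against 26 and 216 thinned cells. Among the annotated cells, cluster 20 held 414 cells with 5E1 and 196 cells with IgG, and cluster 19 held 551 and 1854. On the authors' tSNE map, 55.0% of the 15 nearest neighbours of a member were other members, 34.3% were in cluster 19 and 5.74% in cluster 20, while these clusters hold 1.41%, 10.5% and 2.66% of all cells.

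The other 13 cells, 7 with 5E1 and 6 with IgG, were nearest to a cluster outside the matrix fibroblasts, and 3 of them in the 5E1 library were large. One had 9147 UMIs, of which 5652 came from haemoglobin and other erythroid genes and 144 from matrix fibroblast markers. A pair with 9432 and 4984 UMIs carried Pf4, a platelet chemokine, at 32 and 27 UMIs, and Itga2b, the platelet integrin subunit, at 61 and 10 UMIs. That pair had 2 and 0 UMIs over all matrix fibroblast markers, and Malat1 shares of 19.8% and 19.7%. The 7 cells held 19.4% of the UMIs of cluster 14 in the 5E1 library, whereas the 6 IgG cells held 1.73% of theirs. Leaving out all 13 changed the medians little, to 1908 UMIs and 5.58% mitochondrial UMIs with 5E1 and to 2218 UMIs and 5.34% with IgG. Summed levels of 5E1 cells did change. They are given without these 13 cells for some genes and lists, and include them unless stated. Across the 2 matrices, 243 barcodes were shared and 184 of them were annotated in both libraries, among them 1 member from the 5E1 library and 2 members from the IgG library.

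Against cluster 19, cluster 14 had higher levels of mitochondrially encoded, collagen and matrix genes and lower levels of ribosomal protein and translation genes, as described list by list further on. Of 3025 genes with a mean of at least 50 CPM, 52 (1.72%) were at least 2-fold higher in cluster 14 in both libraries and 29 (0.959%) were at least 2-fold lower in both. Without the 13 cells the counts were 61 (2.03%) and 32 (1.06%), and 36 of the 52 and 22 of the 29 genes were among them. Against the depth-matched cluster 19 cells the counts were 53 (1.77%) and 27 (0.9%), but only 24 of the 52 and 14 of the 29 genes passed 2-fold in both comparisons. All 52 higher genes were above 0 on the log2 scale in both libraries against those cells, and 27 of the 29 lower genes were below 0, where 35.5% and 37.9% of all tested genes were so. Both ratios use the same cluster 14 counts, and the depth-matched cells are part of cluster 19. The kept sign was thus largely fixed in advance and adds no support. Against cluster 20, 77 of 3058 genes (2.52%) were higher and 50 (1.64%) lower, among them 34 of the 52 and 15 of the 29. The filter on the mean includes cluster 14, so a gene can pass through its level there. With the filter set on cluster 19 alone, a choice made after seeing the data, 20 of 2845 genes (0.703%) were higher and 40 (1.41%) lower. Since the clusters were made from the RNA of these same cells, these counts describe the cluster and are no test of it.

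The higher genes included Tnc, Itga8, Lamb1, Svep1 and Bmpr2, which also passed with the filter on cluster 19 alone. Tnc, the matrix glycoprotein tenascin C, had 305 CPM in cluster 14 of the 5E1 library and 361 CPM in that of the IgG library, against 131 and 145 CPM in cluster 19. The ratio was 2.35 (1.66 to 3.18) with 5E1 and 2.49 (2.14 to 2.87) with IgG. Itga8, the integrin subunit that binds nephronectin, had 447 and 230 CPM in cluster 14 and 202 and 99.7 CPM in cluster 19, a ratio of 2.23 (1.69 to 2.87) and 2.32 (1.92 to 2.77). Npnt, nephronectin itself, was below 2-fold, at 1680 and 1255 CPM against 1094 and 754 CPM. Lamb1, a laminin chain of basement membranes, had ratios of 2.30 (1.59 to 3.18) and 2.42 (2.03 to 2.85). Svep1, a very large adhesion protein, had ratios of 2.34 and 2.31, and Bmpr2, the type II receptor for BMP ligands, had 2.43 and 2.18. Other genes stood near the top of the ranking by the smaller ratio of the 2 libraries. Slc25a36, a mitochondrial nucleotide carrier, stood at 2.88-fold (1.63 to 4.6) with 5E1 and 2.92-fold (2.18 to 3.82) with IgG. Nckap5 stood at 4.62-fold (2.31 to 8.25) and 2.54-fold (1.92 to 3.27). Neither had a mean of 50 CPM in cluster 19.

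Chd7, Nfat5, Erbb2ip and Cers6 were also among the 15 highest, and of these 4 only Cers6 had a mean of 50 CPM in cluster 19. Chd7, a chromatin remodeller, was 2.97-fold and 2.66-fold higher with 5E1 and IgG. Without the 13 cells it had 75.7 CPM with 5E1, against 115 CPM with them and 39.7 CPM in cluster 19, and was no longer called. Nfat5, the transcription factor of osmotic stress, was 2.98-fold and 2.49-fold higher. Erbb2ip, a scaffold of junctions, was 2.66-fold and 2.41-fold higher, and Cers6, a ceramide synthase, was 2.32-fold and 2.37-fold higher. These 4 genes rested on 14 to 18 UMIs with 5E1 and 36 to 79 UMIs with IgG. Mob1b and Gp5, also among the 15, rested in the 5E1 library on single cells, with 27 of the 40 Mob1b UMIs in 1 cell and all 32 Gp5 UMIs in 2 cells, and neither was called without the 13 cells. Gp5 encodes a platelet glycoprotein. Outside the ranking by ratio, Malat1 stood at 71027 and 46836 CPM in cluster 14, against 28337 and 22880 CPM in cluster 19. Without the 13 cells Malat1 had 58135 CPM with 5E1 and 46313 CPM with IgG. Gm42418, a locus that overlaps a ribosomal RNA repeat, stood at 2209 and 2538 CPM, against 867 and 1137 CPM.

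The 29 lower genes included 5 ribosomal protein genes and S100a8 and S100a9. Rpl3, a ribosomal protein gene, had 949 CPM with 5E1 and 1015 CPM with IgG in cluster 14, against 2645 and 2456 CPM in cluster 19, which was 2.78-fold lower (2.36 to 3.32) and 2.42-fold lower (2.23 to 2.63). Rplp0 was 2.79-fold and 2.24-fold lower, Rps4x 2.97-fold and 2.19-fold lower, and the initiation factor subunit gene Eif3f 2.75-fold and 2.19-fold lower. Oaz1, which restrains polyamine synthesis, had 630 and 791 CPM against 1604 and 1750 CPM. Socs3, a feedback inhibitor of cytokine signalling, had 74.5 and 55.1 CPM against 281 and 124 CPM. S100a8 and S100a9, which neutrophils make in large amounts, had the largest differences by the smaller of the 2 libraries' ratios. S100a8 was 5.06-fold lower with 5E1 and 3.5-fold lower with IgG, and S100a9 4.17-fold and 3.34-fold. Against the depth-matched cells S100a8 had a log2 ratio of 0.33 with 5E1 and -1.82 with IgG, so its direction there differed between the libraries. H2afz, a histone variant, was 2.54-fold and 2.40-fold lower. Cenpa, the centromere histone, was 2.89-fold and 2.45-fold lower, on 3 UMIs with 5E1, and neither gene was 2-fold lower in both libraries against the depth-matched cells or cluster 20.

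Grouped by function, several lists lay to one side of cluster 19 in both libraries. Over all 3025 genes, 36.7% were higher in cluster 14 in both libraries and 40.5% lower in both, at any size of difference, and with the filter on cluster 19 alone 28.9% and 47.6% were. Of the 13 mitochondrially encoded mRNAs, 10 passed the filter of 50 CPM and all 10 were higher in cluster 14 in both libraries, with a median log2 ratio of 0.95, against -0.04 for all genes tested. Their summed level was 48151 CPM with 5E1 and 53856 CPM with IgG in cluster 14, against 25079 and 27267 CPM in cluster 19. The opposite held for the nuclear genes of the same respiratory chain. Of 34 nuclear subunit genes, 31 were lower in both libraries and 1 was higher, with a median of -0.39. For instance Cox4i1, a subunit of cytochrome oxidase, was 1.54-fold and 1.40-fold lower, while mt-Co3, a mitochondrially encoded subunit of that enzyme, was 1.91-fold and 1.98-fold higher. Of 86 ribosomal protein genes past the filter, 81 were lower in both libraries and 1 was higher, with a median of -0.54, and 5 of them were at least 2-fold lower. Of 18 translation factors, 17 were lower in both, with a median of -0.64. Without the 13 cells the 4 lists kept their side of 0. The medians were then -0.42 for ribosomal protein genes, -0.54 for translation factors and -0.31 for nuclear subunit genes, of which 26 were lower in both. For mitochondrially encoded genes the median was 1.02, and their sum was 54192 CPM with 5E1 and 53742 CPM with IgG.

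Genes for very large proteins and for splicing and RNA binding stood on the other side. Of 30 genes for giant proteins, 10 passed the filter, but 4 of them only through their level in cluster 14. The 6 with a mean of at least 50 CPM in cluster 19 were higher in both libraries, with a median of 0.74, against -0.15 for all genes under that filter. The sum over all 30 was 4777 CPM with 5E1 and 4735 CPM with IgG, against 2824 and 2724 CPM in cluster 19. It was the highest of the 23 clusters in each library. Macf1 alone made up the larger part of each sum in cluster 14, and no rank without it is given, so the rank in part restates that marker. Macf1, which is also one of the 3 given markers, was 1.63-fold (1.46 to 1.82) and 1.72-fold (1.63 to 1.81) higher, Hmcn1, a giant matrix protein, 1.72-fold and 1.66-fold, and Dync1h1, the dynein motor heavy chain, 2.16-fold and 2.31-fold. Of 31 splicing and RNA-binding genes, 22 were higher in both libraries and 4 lower, with a median of 0.56. Son and Luc7l2, which act in splicing, were 1.72-fold and 1.68-fold higher with 5E1 and 1.76-fold and 1.68-fold higher with IgG.

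The collagen and matrix list lay on the same side. Of 23 members past the filter, 19 were higher in both libraries and 1 lower, with a median of 0.62. Col3a1 had 3124 CPM with 5E1 and 2977 CPM with IgG in cluster 14, against 1780 and 1484 CPM in cluster 19, a ratio of 1.76 (1.59 to 1.93) and 2.01 (1.91 to 2.11). Col1a1 was 1.72-fold and 1.92-fold higher and Fn1, fibronectin, 1.51-fold and 1.74-fold higher. Bgn, a small proteoglycan gene, was 1.65-fold and 1.35-fold lower, and Mfap4, an elastic fibre protein gene and the most abundant matrix fibroblast marker, was lower at 11607 and 11827 CPM against 14413 and 13347 CPM. Within the 24 matrix fibroblast markers past the filter, 12 were higher in both libraries and 7 lower, with a median of 0.16, so the markers did not lie to one side. Mesenchymal transcription factors had 11 higher and 3 lower of 18, with a median of 0.28. Tbx2 was 1.75-fold and 2.06-fold higher and Zeb2 1.84-fold and 1.74-fold higher. Tcf21 was at ratios of 0.82 (0.69 to 0.97) with 5E1 and 1.11 (1.02 to 1.2) with IgG, both with the 13 cells included. The 7 of those cells with 5E1 held 19.4% of the 5E1 UMIs of cluster 14. None of these 7 had more than 2 Tcf21 UMIs, so they lower the 5E1 ratio. The secretory pathway list was flat, with 10 higher and 6 lower of 20 and a median of 0.01.

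**Figure D3:**
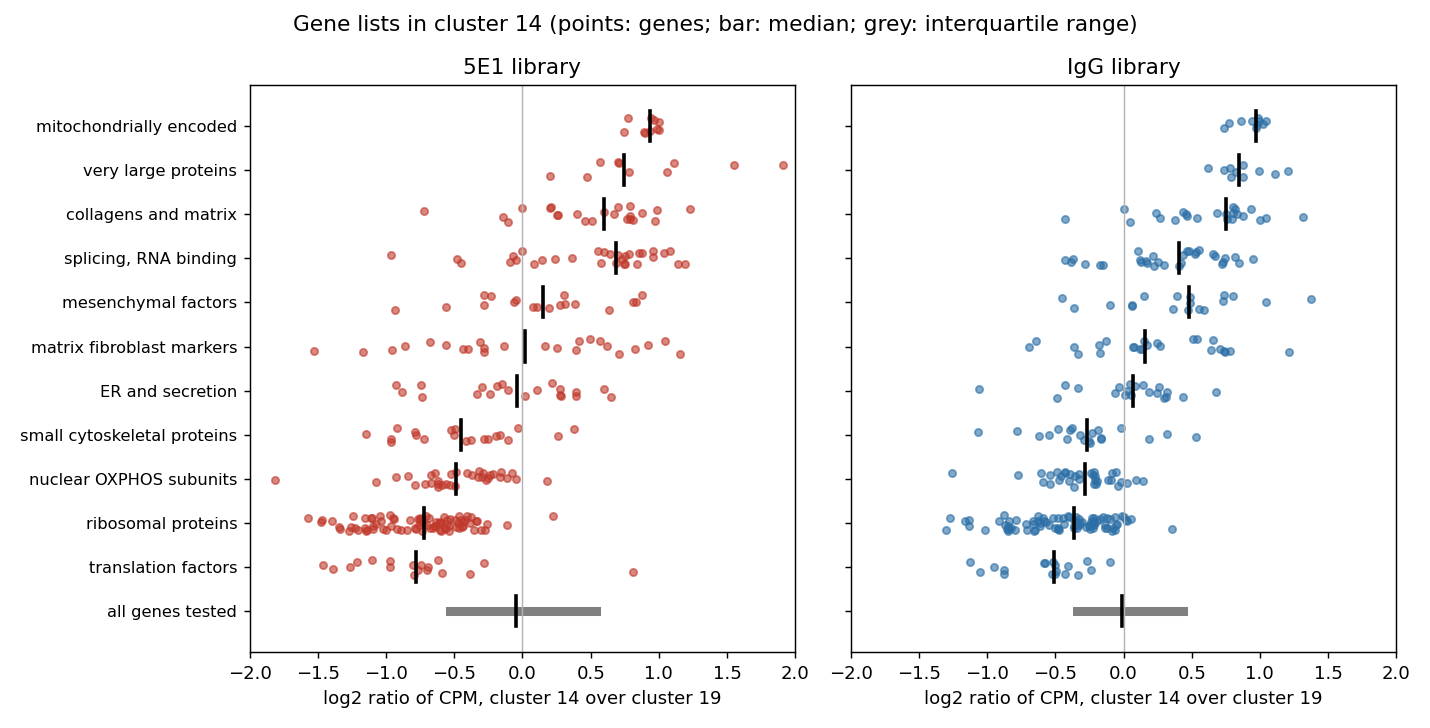
Log2 ratio of CPM in cluster 14 over cluster 19 for the genes of each list past the filter, in the 5E1 library (left) and the IgG library (right), with the list median as a black bar and the interquartile range of all 3025 genes in grey. The medians of mitochondrially encoded, giant-protein and collagen genes lie to the right of 0, and those of ribosomal protein genes and translation factors to the left.

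The log2 ratio of a gene went with the length of its transcript. Among 2983 protein-coding nuclear genes with a length in the GENCODE annotation, the median log2 ratio of cluster 14 over cluster 19 was -0.34 for the 282 genes whose longest coding transcript was up to 1000 bases and -0.37 for the 640 genes between 1000 and 2000 bases. It was -0.09 for the 1062 genes between 2000 and 4000 bases. It was 0.47 for the 792 genes between 4000 and 8000 bases and 0.71 for the 207 genes above 8000 bases, of which 180 were higher in both libraries and 10 lower in both. With the filter on cluster 19 alone the 5 medians were -0.35, -0.42, -0.17, 0.33 and 0.63. With the depth-matched cluster 19 cells they were -0.42, -0.38, -0.08, 0.48 and 0.74. Across genes, Spearman's rho between length and log2 ratio was 0.52 with 5E1 and 0.61 with IgG, and 0.51 and 0.61 with the ribosomal protein genes left out. These genes share the same libraries and are not independent. The 52 higher genes had a median length of 5662 bases, the 29 lower genes 1358 bases and all tested genes 2932 bases. Other properties that go with transcript length were not tested.

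**Figure D4:**
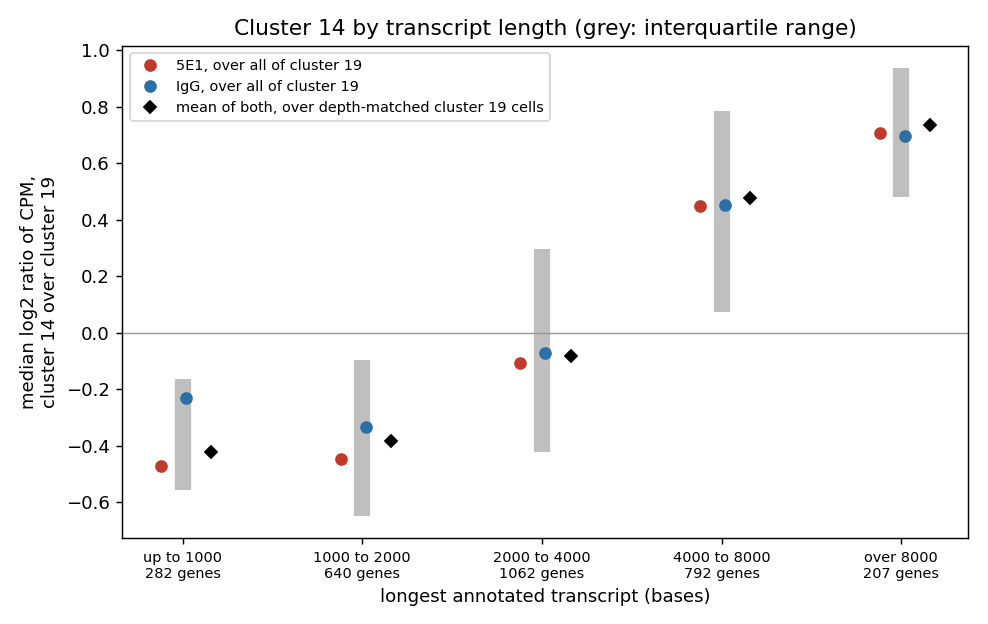
Median log2 ratio of CPM in cluster 14 over cluster 19 for protein-coding genes binned by the length of the longest annotated coding transcript in bases, for each library and against depth-matched cluster 19 cells, with the interquartile range of the genes in grey. In the shortest bin the medians are -0.47 with 5E1, -0.23 with IgG and -0.42 against the depth-matched cells, and above 8000 bases they are 0.71, 0.70 and 0.74.

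Cells of other clusters were also divided at 5% mitochondrial UMIs, both libraries together. Beside cluster 14, 8 clusters had at least 50 cells above 5%. Across these 8, the cells above 5% had median log2 ratios over the rest of their cluster between 0.15 (cluster 19) and 0.75 (cluster 21) for giant-protein genes and between -0.35 (cluster 10) and -0.12 (cluster 19) for ribosomal protein genes. The giant-protein medians rested on few of the 30 listed genes, from 4 in cluster 4 to 11 in cluster 11, and the genes tested differed between clusters. Over all genes tested the medians lay between -0.06 and 0.08, except for 0.35 in cluster 10. The cells above 5% were shallower than the rest in 7 of the 8, the exception being cluster 5 with 2789 UMIs against 2682 UMIs. Clusters 11, 9 and 21 are described further. In cluster 11, which had the highest summed endothelial markers, the 268 cells above 5% had a median of 1581 UMIs against 5152 UMIs in the other 2339 cells, and a Malat1 median of 2.91% against 1.35%. Their giant-protein genes had a median log2 ratio of 0.48, their ribosomal protein genes -0.31 and their translation factors -0.40. In cluster 9, which had the highest summed AT2 cell markers, the 118 cells above 5% had 2627 UMIs against 6972 UMIs and Malat1 at 3.60% against 1.80%. The ribosomal protein genes of these cells had a median of -0.24 and the giant-protein genes 0.66, of which 3 of 5 were higher, but the collagen and matrix genes were lower, at -0.54. In cluster 21 the 53 cells above 5% had 2158 UMIs against 4744 UMIs, giant-protein genes at 0.75, ribosomal protein genes at -0.25 and collagen and matrix genes at 0.55. Across genes, these log2 ratios correlated with those of cluster 14 over cluster 19 with Spearman's rho of 0.52 in cluster 11, 0.58 in cluster 9 and 0.54 in cluster 21, the 3 highest of the 8. The others were 0.48 in cluster 19, whose cells are also on the other side of that ratio, 0.38 in cluster 10, 0.36 in cluster 15 and 0.32 in clusters 4 and 5. Within cluster 14 the 189 cells above 5% differed less from the other 134, with giant-protein genes at 0.04, ribosomal protein genes at -0.18 and Malat1 medians of 4.69% against 4.43%.

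Stress and division genes gave a mixed picture. Of 15 immediate early genes past the filter, 2 were higher in both libraries and 10 lower, with a median of -0.30 that became -0.80 without the 13 cells. Fos was 2.22-fold and 1.48-fold lower and Jun 2.23-fold and 1.5-fold lower. Heat shock genes had a median of -0.21 against all of cluster 19 and 0.07 against its depth-matched cells. The p53 and apoptosis list had a median of 0.59 over 6 genes, -0.19 without the 13 cells, and -0.36 over the 3 genes that passed the filter on cluster 19 alone. Of 6 genes of the G2 and M phases past the filter, 4 were lower in both libraries, with a median of -1.39, against -0.45 over the depth-matched cells and 1.37 over cluster 20, so the direction depends on the cells taken for comparison. Over all 25 genes of that list the sum was 420 CPM with 5E1 and 1170 CPM with IgG in cluster 14, against 936 and 1960 CPM in cluster 19 and 795 and 894 CPM in its depth-matched cells. In the 5E1 cells of cluster 14, 13 of the 25 genes were at 0 UMIs. A set of 67 cells is too shallow for these genes, since 3 UMIs are 20.3 CPM there.

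RNA of other cell types was present in cluster 14 at levels near those of cluster 19, except for airway, immune and erythroid genes. Club cell secretoglobin Scgb1a1 had 2887 CPM with 5E1 and 4598 CPM with IgG, against 1665 and 2469 CPM in cluster 19 and 2626 and 3691 CPM in the depth-matched cells. The summed 8 airway markers were 3158 and 5027 CPM in cluster 14, 1807 and 2702 CPM in cluster 19, and 2792 and 3972 CPM in the depth-matched cells. The depth-matched cells thus lay between the whole of cluster 19 and cluster 14. Of the other airway markers, Foxj1, Ccdc153, Tmem212 and Krt5 were at 0 with 5E1, and Krt5 was at 0 with IgG. Immune markers were lower, at 535 and 700 CPM against 1156 and 1125 CPM, and the depth-matched cells had 366 and 936 CPM. Without the 13 cells the immune sum was 370 CPM with 5E1 and 657 CPM with IgG. Cd79a and Cd3e, which define B and T cells, were at 0 in both libraries. The part of RNA from other cell types in these comparisons was not tested. Endothelial markers were at 312 and 217 CPM against 311 and 230 CPM, and at 202 and 217 CPM without the 13 cells. Of the epithelial lists, AT2 markers were at 969 and 1149 CPM against 785 and 1060 CPM. Mesothelial markers were at 81.3 and 20.03 CPM, with Upk3b, Wt1, Lrrn4 and Gpm6a at 0 in both libraries. Erythroid genes stood at 39430 CPM with 5E1, which became 471 CPM without the 13 cells, and at 474 CPM with IgG. Cluster 19 had 1573 CPM with 5E1 and 1221 CPM with IgG, and its depth-matched cells had 456 and 509 CPM. Without the 13 cells erythroid sums were thus lower than in cluster 19 and near those of the depth-matched cells. Lipofibroblast, adventitial and myofibroblast markers were near their levels in cluster 19, with the myofibroblast list lower at 1172 and 1795 CPM against 1798 and 2092 CPM.

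Cluster 14 took a smaller share of the 5E1 library than of the IgG library. It held 0.709% (0.55 to 0.899%) of annotated cells with 5E1 and 1.90% (1.67 to 2.14%) with IgG, a ratio of 0.374 (0.281 to 0.491). Among the cells of clusters 14, 19 and 20 the shares were 6.49% (5.07 to 8.17%) with 5E1 and 11.1% (9.85 to 12.5%) with IgG, a ratio of 0.585 (0.440 to 0.768). Each share comes from 1 pool of 3 pups and 1 digestion, and the members differ from other cells in depth and composition. The part of depth and composition in the difference of shares was not tested, and with 1 library per condition the treatment and the library cannot be told apart.

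Within cluster 14, the Hedgehog read-out genes Hhip and Ptch1 were lower in 5E1 than in IgG cells, and they were lower in cluster 19 too. Hhip, the secreted Hedgehog antagonist that the pathway induces, had 6 UMIs in 5 of 67 cells with 5E1 (40.7 CPM) and 228 UMIs in 116 of 256 cells with IgG (381 CPM), a ratio of 0.107 (0.0388 to 0.236). In cluster 19 Hhip had 9.31 CPM with 5E1 and 216 CPM with IgG, and Ptch1 had 21.5 and 97.9 CPM. Ptch1, the receptor of Hedgehog ligands, had 3 UMIs (20.3 CPM) with 5E1 and 103 UMIs (172 CPM) with IgG, a ratio of 0.118 (0.0240 to 0.355), although its mean level was under the filter of 100 CPM used for this comparison. After thinning to 1000 UMIs, Hhip was found in 4.76% (0.993 to 13.3%) of 5E1 cells and 28.6% (23 to 34.7%) of IgG cells of cluster 14, against 0.235% and 1.87% in cluster 4. Ptch1 was found in 1.59% (0.0402 to 8.53%) and 16.7% (12.3 to 22%), against 1.41% and 1.07% in cluster 4. Without thinning, Hhip was found in 7.46% and 45.3% of cells and Ptch1 in 4.48% and 32.8%. Leaving out the 13 cells gave Hhip at 42.0 and 386 CPM and Ptch1 at 16.8 and 172 CPM. The 5E1 value of Ptch1 was at the background of cluster 4 and cannot be told from it. The 11 Hedgehog genes together had 461 CPM with 5E1 and 1028 CPM with IgG, and Hhip and Ptch1 made up most of the difference between these sums. The sums thus do not show a fall across the other members. Only 2 of the 11 passed the filter, Hhip and Gas1, a co-receptor that was higher at 210 and 120 CPM.

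Across genes the comparison was dominated by few cells on the 5E1 side. Of 1541 genes with a mean of at least 100 CPM, 107 (6.94%) were at least 2-fold higher with 5E1 and 46 (2.99%) at least 2-fold lower. The median log2 ratio over all of them was -0.12, and scaling by median-ratio size factors, which moved all values by 0.25, gave 183 higher and 16 lower. Of the 107 higher genes, 46 had more than 50% of their 5E1 UMIs in 1 cell. The 10 largest ratios belonged to genes such as Clec1b, Pf4, Nrgn, Itga6 and Tmem40, and Clec1b had 50 UMIs in 2 cells with 5E1 and 0 with IgG. Neat1, a nuclear non-coding RNA, had 840 CPM with 5E1 and 81.8 CPM with IgG, but 84.1 and 83.2 CPM without the 13 cells. Without these cells 56 genes (3.66% of 1532) were higher and 28 (1.83%) lower, and 26 of the 107 and 21 of the 46 were still called. In cluster 19, which has more cells, the same threshold gave 27 (1.84% of 1468) higher and 16 (1.09%) lower.

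Several fibroblast genes were called with and without those cells. Eln, elastin, had 6112 CPM with 5E1 and 2120 CPM with IgG, a ratio of 2.88 (2.64 to 3.14), and 6626 and 1967 CPM without the 13 cells, with a log2 ratio of 1.53 in cluster 19. Aspn, a small leucine-rich proteoglycan, had 197 and 70.1 CPM, a ratio of 2.80 (1.68 to 4.61), and a log2 ratio of 2.04 in cluster 19. Klf9, a glucocorticoid-induced transcription factor, had 197 and 56.8 CPM, and Apoe, a lipid carrier, had 1172 and 579 CPM. On the lower side, Pltp, a phospholipid transfer protein, had 3 UMIs (20.3 CPM) with 5E1 and 146 UMIs (244 CPM) with IgG, a ratio of 0.0834 (0.0170 to 0.249). Dpt, the matrix protein dermatopontin, had 400 and 1172 CPM, a ratio of 0.341 (0.257 to 0.445). Vcan, the proteoglycan versican, had 156 and 416 CPM, and Adh1, a retinol dehydrogenase, had 332 and 993 CPM, a ratio of 0.334 (0.244 to 0.448). In cluster 19 the log2 ratios were -2.26 for Pltp, -1.25 for Dpt, -1.33 for Vcan and -0.82 for Adh1. Sdpr, a caveolar protein gene, had 61.0 and 312 CPM in cluster 14 and a log2 ratio of -0.41 in cluster 19, and its 5E1 value in cluster 14 rests on 9 UMIs. The 3 given markers had intervals that include 1, with ratios of 0.960 (0.853 to 1.08) for Macf1, 0.942 (0.779 to 1.13) for Tcf21 and 0.943 (0.824 to 1.08) for Limch1. These 3 ratios include the 13 cells. Over the 21 matrix fibroblast markers past the filter, the median log2 ratio was -0.03 with those cells (9 higher, 12 lower). Without them it was 0.19 (15 higher, 6 lower). Ratios slightly under 1 are thus not read here as lower levels with 5E1. In cluster 19, which comes from the same 2 libraries, 43.6% of the 1541 genes had a positive and 56.4% a negative log2 ratio, and 2.01% were 2-fold higher and 1.3% 2-fold lower. Of the 107 higher genes, 79 were positive there and 17 were 2-fold higher. Of the 46 lower genes, 44 were negative there and 10 were 2-fold lower. Within cluster 14 the 5E1 cells also differed from the IgG cells in depth, at medians of 1911 and 2211 UMIs, and in Malat1, at 5.54% and 4.31% of UMIs or 5.28% and 4.25% without the 13 cells. With every cell thinned to 1000 UMIs, 107 of 1592 genes tested were higher and 62 lower, among them 42 of the 107 and 22 of the 46. The part of Malat1 in these differences was not tested.

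**Figure D5:**
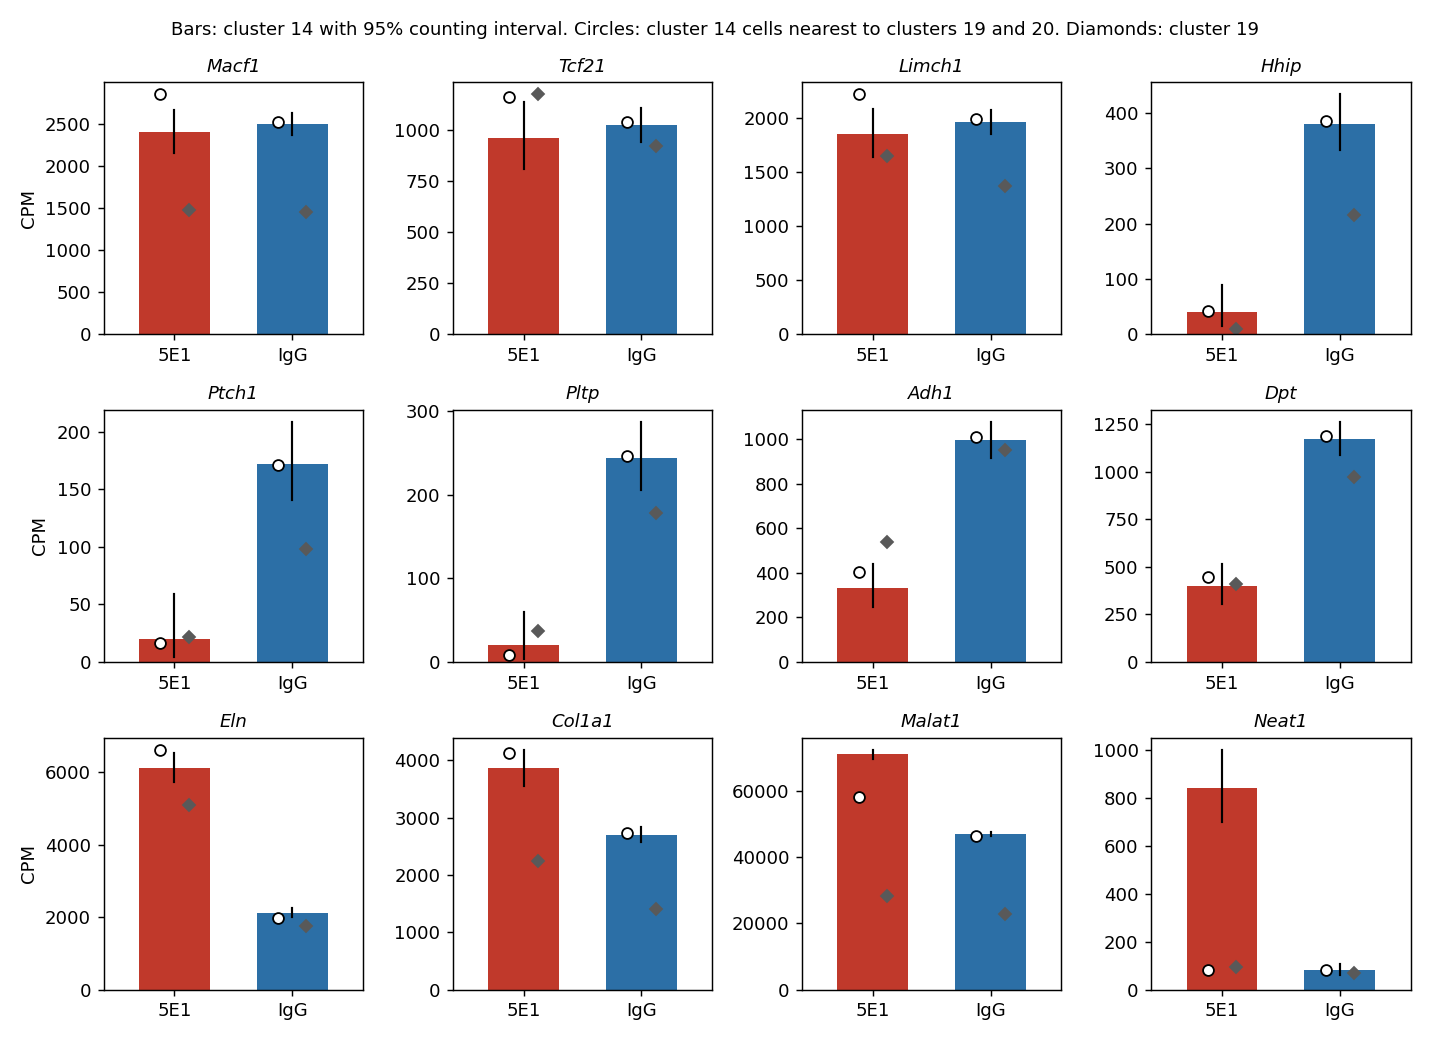
CPM of 12 genes in cluster 14 with 5E1 (left bar) and IgG (right bar), with 95% counting intervals as lines, the values without the 13 cells that were nearest to no matrix fibroblast cluster as circles and the cluster 19 values as diamonds. Hhip, Ptch1, Pltp, Adh1 and Dpt are lower and Eln higher with 5E1, and the Neat1 bar of 840 CPM comes down to 84.1 CPM without those cells.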

How the data were processed

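Single-cell counts were deposited by the authors as 1 UMI count matrix per library, whole numbers per gene and barcode, made with Cell Ranger (the submitters' processing notes name version 3.1.1 and build mm10, and the file headers name software version 3.0.0). The authors also deposited a table that gives each kept cell its library, cluster number and tSNE coordinates (a score). The header of that table is shifted by 1 column, so the cluster numbers stand under another name. How doublets were treated is not given in the sources used here, and no doublet caller was run.

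UMIs were summed per library and cluster and scaled to CPM (per 1000000 UMIs). Log2 ratios used a pseudocount of 0.5 UMI. Genes were called at a 2-fold difference, in both libraries for clusters, with a mean of at least 50 CPM between clusters and 100 CPM between conditions. Shares have exact Clopper-Pearson intervals, levels exact Poisson intervals and ratios conditional binomial intervals, all at 95%, and they cover counting error only. Cluster 14 held 147578 UMIs with 5E1 and 598986 UMIs with IgG. Cells were thinned to 1000 UMIs without replacement. Nearest profiles used a multinomial likelihood. Transcript lengths and coordinates came from the GENCODE annotation of GRCm38, which matched 99.9% of tested genes. With 1 library per condition no p-value, SD or test was computed. The members and gene lists were chosen with earlier results of these data known. Named genes were the 3 markers, members of the matrix fibroblast, nuclear lncRNA, Hedgehog and PDGF lists with at least 20 UMIs, of each other list the 4 members with the most UMIs and those called, the 15 highest and lowest between clusters, and the 10 highest and lowest between conditions, leaving out Xist, Tsix and Y-linked genes between conditions and mitochondrial, haemoglobin, immunoglobulin and predicted genes in all rankings. A gene in these rankings is not reported here. Fn1, Bgn, Luc7l2 and Itga2b were chosen after their values were seen, as were leaving out the 13 cells nearest to no matrix fibroblast cluster and setting the filter on cluster 19 alone. The call rule was tested on simulated counts. The analysis used Python 3.11.15, numpy 2.4.6, scipy 1.17.1 and pandas 2.3.3.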

Additional observations from a re-analysis of the deposited data

How the results depend on the processing

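With 1 library per condition and none to leave out, no result could be repeated without a replicate. No paired analysis was possible because each condition has 1 library and the results come from no test. Of 133 recomputed values, 89 stayed within their limits, 35 moved and 9 changed sign. The share ratio was 0.585 with clusters 14, 19 and 20 as the denominator. Genes higher in cluster 14 numbered 180 at a mean of 20 CPM, 7 at 200 CPM and 20 (0.703% of 2845) with the filter on cluster 19 alone, which was chosen after seeing the data. Genes lower numbered 49 and 14 at 20 and 200 CPM, 50 (1.64% of 3058) against cluster 20 and 48 with mitochondrial, ribosomal protein and nuclear lncRNA UMIs out of the totals. Between conditions, genes higher with 5E1 numbered 183 with median-ratio scaling, 267 at 50 CPM, 33 at 200 CPM, 226 with the 20 5E1 cells that had an Xist UMI and no Y-linked UMI, and 56 with cells nearest to clusters 19 and 20 only, an alternative chosen after seeing the data. Genes lower numbered 16, 166, 16, 97 and 28 in the same order. The last of these settings tested 1532 genes, of which 3.66% were higher and 1.83% lower. Between clusters and between conditions, another CPM filter tests another number of genes, so counts at other filters cannot be compared as shares. The signs that changed, as median log2 ratios, were heat shock genes against depth-matched cells (0.073), p53 genes without the 13 cells (-0.19) and with the filter on cluster 19 alone (-0.36), matrix fibroblast markers between conditions (-0.03, and 0.23 with median-ratio scaling, 0.14 thinned, 0.076 in Xist-positive cells, 0.19 without the 13 cells), giant-protein genes between conditions in Xist-positive cells (-0.13) and translation factors between conditions with median-ratio scaling (0.0095). Both changes with median-ratio scaling follow from the shift of 0.25 that it gives every gene. The cause of the others was not tested. Depth limits the 5E1 side most, where 3 UMIs over 67 cells are 20.3 CPM.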
